A study of Rattus norvegicus with 9 samples.

Results

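The genes described here encode the scaffolds, protein kinases and phosphatases of the rat postsynaptic density. They were listed by name for their roles, with earlier results of these data known, and comprise 33 genes. Of these, 32 were measured and tested among 15522 genes. Mapk3, which encodes the ERK1 kinase, had no row under its own symbol and was not analysed here.

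Male rats received transcranial focal stimulation (TFS), a current applied through the scalp, at 300 Hz and 50 mA for 5 min. Tissue was taken 4 h later, after decapitation. Sham rats were handled in the same way with no current. The 9 arrays form 3 groups of 3: sham bilateral parietotemporal cortex, sham bilateral hippocampus and TFS bilateral hippocampus. No stimulated cortex was analysed here, and the sources used here do not state strain or age. The labels do not say whether the arrays of a group come from separate rats, so p-values measure only the spread between these samples. The sham hippocampus arrays serve in both comparisons.

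Beneath the membrane of an excitatory synapse, scaffold proteins stack in layers. Dlg proteins bind receptors, Dlg-associated proteins link them to Shank, and Shank binds Homer, which reaches glutamate receptors and calcium stores. Calcium entering through NMDA receptors loads calmodulin, which switches on CaMKII and the phosphatase calcineurin. These enzymes act in opposite directions on many synaptic substrates. CaMKII is abundant in forebrain neurons and is needed for long-term potentiation in the hippocampus.

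Signals are log2 values per gene on each array, and a difference of 1 is a doubling. Array medians lay between 4.95 and 5.04. The number of arrays limits the precision. Negative control rows reached 7.57 at their 95th percentile, called the background range below. Their median was 4.06 to 4.21 on single arrays, so a value in that range can still lie above most negative controls. Of the measured members, 5 lay in that range on some array and 0 on all 9. For Camk2d, Homer3 and Ppp1r1b, every array of 1 sham group lay in it. Such a gene is given as "at least" a fold, the brighter group's mean against the dimmer group's with each array raised to 7.57 where it was lower. The limma p beside such a fold belongs to the measured difference, values in the background range included. It does not test the bound. The first principal component, with 67.9% of the variance, separated cortex from hippocampus. The second, with 8.96%, set apart both sham arrays numbered 1. Prox1, a marker of dentate granule cells, was at least 1.32-fold higher in sham hippocampus, with cortical values in the background range (limma adjusted p = 1.8e-05). Tbr1, a marker of cortical projection neurons, was lower, with means of 8.05 in sham hippocampus and 9.26 in cortex (limma adjusted p = 0.000393). Wfs1, the second hippocampal marker, had means of 9.91 in hippocampus and 9.71 in cortex and did not pass the test (limma adjusted p = 0.387). Rorb, a cortical marker, was at least 1.38-fold lower in hippocampus, where its values lay in the background range (limma adjusted p = 0.0221). The mean over 9 neuron markers was 10.40 to 10.45 in cortex and 10.42 to 10.46 in sham hippocampus. Of these markers, 2 were called higher in hippocampus and 0 lower. Stmn2 differed by 0.15 (limma adjusted p = 0.0425) and Nefl by 0.17 (0.0333).

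The first comparison asked how the postsynaptic genes differ between hippocampus and cortex of sham rats. Of 32 members, 19 passed a Benjamini-Hochberg adjusted p of 0.05 in limma, 6 higher and 13 lower in hippocampus. That is 59.4% of members. They were chosen with earlier results of these data known, so this share is a description only. Over all genes tested, 12.4% passed, 5.99% higher and 6.46% lower. Among the 4466 genes whose mean lay above the background range, 21.6% passed. Like-numbered sham arrays of cortex and hippocampus deviated together, and with the replicate number as a block over these 6 arrays limma called 9 members (28.1%) and 6.33% of all genes. All hippocampal arrays lay above all cortical arrays for 7 members and below for 14, while 11 overlapped. Over all genes tested, 24.1% did not overlap. Of the 4466 genes above the background range, 826 lay above and 796 below in this way. The median difference of the members was -0.015, against -0.0044 for all genes. The median size, whatever the direction, was 0.19, against 0.053 for all genes and 0.082 for genes above the background range. With the 3 genes above at their bounds it was 0.16.

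Most differences were small. The 3 called members past 1.5-fold were Camk2d, Dlg1 and Camk4, and Camk2d was the 1 past a doubling. The 13 members that did not pass lay between -0.07 and 0.14. Their 95% intervals lay between -0.15 and 0.25, and 13 of 13 were within 1.2-fold. Among them, Homer2 lay in the background range on 5 of the 9 arrays. Dlg2, Dlg4, Nlgn1, Ppp3cb and Shank3 had a value repeated exactly on 3 or more arrays, which can narrow their intervals. In bulk tissue, fewer cells of a type and less RNA per cell cannot be told apart.

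**Figure D1:**
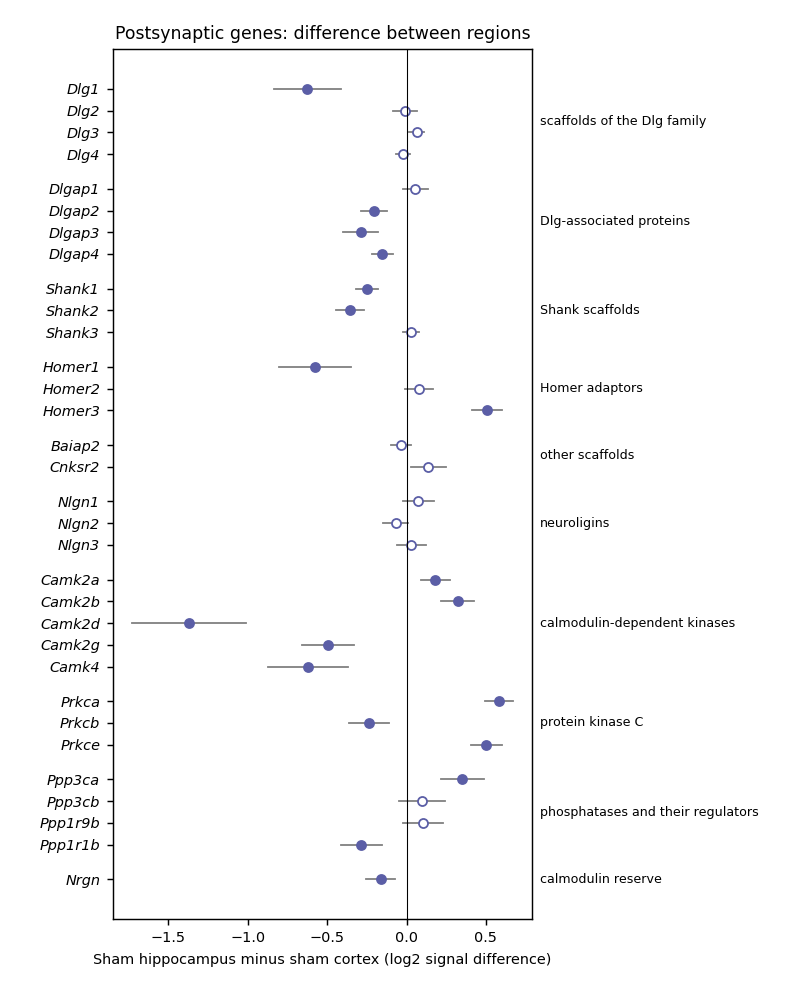
Difference in log2 signal between sham hippocampus and sham cortex for the 32 measured genes, grouped by role, with bars for the 95% interval from limma over 3 arrays a group. Filled points mark the 19 genes with an adjusted p under 0.05, of which 6 lie to the right of 0 and 13 to the left; Camk2d, Homer3 and Ppp1r1b are drawn at measured values although 1 region lay in the background range.

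The calmodulin-dependent kinases split in direction. All 5 passed the test, with 2 higher and 3 lower in hippocampus. Camk2d encodes the delta subunit of CaMKII. Its signal was 8.45, 8.87 and 8.51 in cortex and 7.11, 7.37 and 7.24 in sham hippocampus. The groups stood far apart, and Camk2d lay in the background range on 5 of the 6 hippocampal arrays. Camk2d was at least 2.07-fold lower in hippocampus (n = 3 a group, limma adjusted p = 0.00135). Without the second cortical array, the highest, it also passed (limma adjusted p = 0.00292).

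Camk2g encodes the gamma subunit, which in mouse neurons carries calmodulin to the nucleus. It gave 9.86, 9.65 and 9.87 in cortex and 9.18, 9.39 and 9.32 in sham hippocampus, without overlap. The difference was -0.49 (SE 0.070, limma adjusted p = 0.00374). A row of the array annotated to both Camk2g and Camk2b was not used; its difference was -0.44.

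Camk2b encodes the beta subunit, which binds actin in spines. It gave 10.67, 10.59 and 10.74 in cortex and 10.96, 10.95 and 11.05 in sham hippocampus. Every hippocampal array was higher. The difference was 0.32 (SE 0.044, 95% interval 0.22 to 0.43, limma adjusted p = 0.0032).

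Camk2a encodes the alpha subunit, the main forebrain form. It gave 11.88, 11.79 and 11.77 in cortex and 11.97, 11.97 and 12.05 in sham hippocampus. The groups did not overlap, but the gap between them was narrow. The difference was 0.18 (SE 0.039, limma adjusted p = 0.0224). Its call was lost without cortical array 2 (limma adjusted p = 0.0585), cortical array 3 (0.0644), sham hippocampal array 2 (0.0512) or sham hippocampal array 3 (0.0725).

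Camk4 encodes a kinase that phosphorylates CREB in the nucleus. It gave 8.42, 8.45 and 8.10 in cortex and 7.55, 7.72 and 7.82 in sham hippocampus. The third cortical array came closest to the hippocampal arrays but stayed above them. The difference was -0.62 (SE 0.11, limma adjusted p = 0.00889). With the replicate number as a block over the 6 sham arrays, the adjusted p was 0.109 for Camk4, 0.0891 for Camk2g and 0.138 for Camk2a. With the block over all 9 arrays, Camk2a had an adjusted p of 0.0551. Without both sham arrays numbered 1, Camk4 had an adjusted p of 0.0864.

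**Figure D2:**
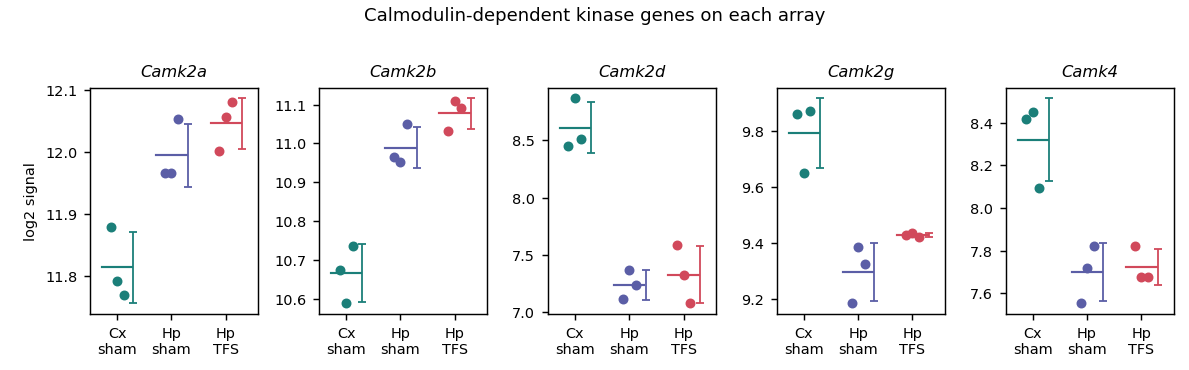
Log2 signal of the 5 calmodulin-dependent kinase genes on each array, with a line for the group mean and a bar for 1 SD either side (n = 3), each panel with its own scale. Camk2a and Camk2b lie higher and Camk2d, Camk2g and Camk4 lower in the sham hippocampus than in the sham cortex, without overlap.

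Promoter sequences of the 4 CaMKII genes are shown because these genes differed in opposite directions between the regions. They run from 250 bases before to 50 bases after the start of transcription and are from RefSeq, build GRCr8. Camk2a lies at chr18:56648930-56649229 (plus strand), Camk2b at chr14:85147895-85148194 (minus strand), Camk2d at chr2:217698301-217698600 (plus strand) and Camk2g at chr15:3553106-3553405 (plus strand). Each is written 5′ to 3′ on the gene's strand, and capitals mark GGGCGG or its reverse complement CCGCCC.
Camk2a: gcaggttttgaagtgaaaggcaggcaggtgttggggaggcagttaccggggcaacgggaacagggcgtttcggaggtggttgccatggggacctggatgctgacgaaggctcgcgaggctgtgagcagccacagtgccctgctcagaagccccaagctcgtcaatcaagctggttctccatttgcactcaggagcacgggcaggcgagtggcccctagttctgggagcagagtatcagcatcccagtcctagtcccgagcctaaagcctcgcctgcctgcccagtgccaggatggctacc
Camk2b: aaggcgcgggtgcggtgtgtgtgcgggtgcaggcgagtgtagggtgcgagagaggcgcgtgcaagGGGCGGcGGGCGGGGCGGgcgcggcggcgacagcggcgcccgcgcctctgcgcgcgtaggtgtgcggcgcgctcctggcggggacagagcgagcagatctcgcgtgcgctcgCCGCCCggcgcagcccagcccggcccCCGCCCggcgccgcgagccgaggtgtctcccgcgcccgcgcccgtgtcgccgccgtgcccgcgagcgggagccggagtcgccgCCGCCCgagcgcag
Camk2d: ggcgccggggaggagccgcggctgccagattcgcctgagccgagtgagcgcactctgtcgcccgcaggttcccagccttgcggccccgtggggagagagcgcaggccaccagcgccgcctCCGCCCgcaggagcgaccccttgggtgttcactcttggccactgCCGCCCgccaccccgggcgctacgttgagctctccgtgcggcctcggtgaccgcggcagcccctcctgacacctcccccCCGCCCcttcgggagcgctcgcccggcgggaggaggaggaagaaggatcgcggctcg
Camk2g: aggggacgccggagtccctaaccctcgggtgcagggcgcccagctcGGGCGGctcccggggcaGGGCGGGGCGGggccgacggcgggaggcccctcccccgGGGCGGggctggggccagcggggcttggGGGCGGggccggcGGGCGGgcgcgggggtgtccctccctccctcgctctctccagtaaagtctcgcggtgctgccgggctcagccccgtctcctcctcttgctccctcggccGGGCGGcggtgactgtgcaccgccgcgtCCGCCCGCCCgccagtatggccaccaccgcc

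The GC box GGGCGG, a site that Sp1 can bind, occurred 0 times in the Camk2a window, 6 in Camk2b, 3 in Camk2d and 9 in Camk2g, on either strand with overlapping matches counted separately. GC content was 61.3%, 81.3%, 74.7% and 80% in that order, and CpG counts were 12, 59, 36 and 37. Camk2a held TGACG, the short form of the CREB site, 2 times, and the other 3 held it 0 times. Camk2a and Camk2b were the higher genes in hippocampus, and Camk2d and Camk2g the lower. Whether the counts bear on the direction was not tested. RefSeq windows were found for 25 members, with 26 windows because Dlgap1 had 2. Of these, 12 held a GC box (46.2%, against 33.1% of 33469 promoters). TGACG was in 2 of 26 (7.69%, against 21.2%), and the full TGACGTCA in 0 of 26 (against 1.83%). GCGGGGGCG, which Egr1 can bind, was in 2 (7.69%, against 2.73%). CACGTG was in 1 (3.85%, against 6.42%) and CAGCTG in 2 (7.69%, against 15.1%). TATAAA was in 3 (11.5%, against 14.2%) and CCAAT in 9 (34.6%, against 37.5%). Both strands were searched for each. Median GC content was 66.5% in member windows and 51.7% in all promoters, and the median number of CpGs was 18 and 7. A match is a description of the letters only.

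All 3 protein kinase C genes among the members passed the test. Outside the members, Prkcz was lower in hippocampus by 0.19 (limma adjusted p = 0.00988). Prkcd, in the background range in both regions, did not pass (limma adjusted p = 0.062). Prkca encodes the alpha isoform, a calcium-activated form. It gave 9.52, 9.42 and 9.43 in cortex and 10.01, 10.10 and 10.01 in sham hippocampus. The hippocampal arrays lay well above every cortical array. The difference was 0.58 (SE 0.037, 95% interval 0.50 to 0.67, limma adjusted p = 0.00014).

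Prkce encodes the epsilon isoform, which does not need calcium. It gave 9.28, 9.42 and 9.43 in cortex and 9.85, 9.88 and 9.91 in sham hippocampus, again without overlap. The difference was 0.50 (SE 0.042, limma adjusted p = 0.000393).

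Prkcb encodes the beta isoforms, which are calcium-activated like the alpha form. It gave 10.57, 10.46 and 10.59 in cortex and 10.24, 10.33 and 10.35 in sham hippocampus. Hippocampus was lower, the opposite of Prkca and Prkce. The difference was -0.24 (SE 0.054, limma adjusted p = 0.0282). This call was lost without cortical array 1 (limma adjusted p = 0.0941) or 3 (0.0825), sham hippocampal array 1 (0.0795), 2 (0.0743) or 3 (0.0579), or TFS array 1 (0.0524). It was also lost with the 6 sham arrays alone (0.0530), with the replicate block over them (0.0959) and without both sham arrays numbered 1 (0.183).

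Among the scaffolds, Dlg1 encodes SAP97, which binds AMPA receptors. It gave 8.45, 8.41 and 8.54 in cortex and 7.63, 7.92 and 7.97 in sham hippocampus. No hippocampal array reached the cortical values, and the first was the lowest. The difference was -0.62 (SE 0.091, 95% interval -0.84 to -0.41, limma adjusted p = 0.00437), a 1.54-fold lower signal. Without the first sham hippocampal array, it was -0.52 (limma adjusted p = 0.00477).

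The other 3 members of the Dlg family did not pass. Dlg4, which encodes PSD-95, the most studied scaffold, had a value of 9.15 on 8 of the 9 arrays and 9.09 on sham hippocampal array 2. On 6 arrays the deposited value was exactly the same, so its spread is small by that fact, and its difference was -0.02 (95% interval -0.07 to 0.02, limma adjusted p = 0.529). Dlg2, which encodes PSD-93, differed by -0.01 (limma adjusted p = 0.909), with its sign turned without cortical array 1 (0.0029) or sham hippocampal array 1 (0.026). Dlg3, which encodes SAP102, differed by 0.06, with all hippocampal arrays above all cortical ones (limma adjusted p = 0.0978). Exact repeats of a value on 3 or more arrays also occurred for Nlgn1, Shank3, Dlg2 and Ppp3cb, and for 8554 of the genes tested.

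Dlg-associated proteins, also called SAPAPs or GKAPs, bind the guanylate kinase domain of Dlg proteins, and 3 of 4 genes were lower in hippocampus. Dlgap3 gave 8.92, 8.87 and 8.73 in cortex and 8.60, 8.52 and 8.54 in sham hippocampus, a difference of -0.29 (SE 0.047, limma adjusted p = 0.00717). Dlgap2 differed by -0.21 (SE 0.035, limma adjusted p = 0.0082) and Dlgap4 by -0.15 (SE 0.028, limma adjusted p = 0.0122). For these 3 genes the arrays of the regions did not overlap. Dlgap1 did not pass, with a difference of 0.06 (limma adjusted p = 0.354). With the replicate block over the 6 sham arrays, Dlgap3 had an adjusted p of 0.0543 and Dlgap4 of 0.0902.

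Shank proteins are the master scaffolds that join the Dlg and Homer layers. Shank2 gave 8.86, 8.89 and 8.80 in cortex and 8.52, 8.45 and 8.50 in sham hippocampus, a difference of -0.36 (SE 0.038, limma adjusted p = 0.00101). Shank2 has a second row, which differed by -0.17, and the mean of both differed by -0.26. Shank1 gave 10.11, 10.03 and 10.10 in cortex and 9.81, 9.84 and 9.83 in sham hippocampus, a difference of -0.25 (SE 0.030, limma adjusted p = 0.00165). Both were lower on every hippocampal array. Shank3 gave 8.32, 8.32 and 8.26 in cortex and 8.32, 8.32 and 8.35 in sham hippocampus, with overlap and a difference of 0.03 (95% interval within 1.2-fold, limma adjusted p = 0.461).

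The Homer genes also differed in direction, but Homer3, the higher one, lay in or near the background range. Homer1 encodes the adaptor that links group I metabotropic glutamate receptors to Shank, and also a short activity-induced form that this gene-level value does not separate. It gave 9.59, 9.29 and 9.58 in cortex and 8.78, 8.97 and 8.98 in sham hippocampus. The groups did not overlap, and the second cortical array was the lowest of its group. The difference was -0.57 (SE 0.097, 95% interval -0.80 to -0.35, limma adjusted p = 0.00808).

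Homer3, which encodes another long Homer adaptor, went the other way, at 7.10, 7.07 and 7.15 in cortex and 7.57, 7.57 and 7.69 in sham hippocampus. Every hippocampal array was higher. All 3 cortical values lay in the background range and the hippocampal values just above it. Homer3 was thus at least 1.03-fold higher (limma adjusted p = 0.00036 for the measured difference, not for this bound). Homer2 differed by 0.08 and did not pass (limma adjusted p = 0.243), but passed without cortical array 3 (limma adjusted p = 0.0237). Homer1 lost its call with the replicate block over the 6 sham arrays (limma adjusted p = 0.0888) and without both sham arrays numbered 1 (0.0771).

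Neither of the other scaffolds passed the test. Baiap2, which encodes the actin regulator IRSp53, differed by -0.03 (limma adjusted p = 0.471). Cnksr2, which encodes a scaffold of the Ras pathway, differed by 0.14 (limma adjusted p = 0.119), and passed when both sham arrays numbered 1 were left out (limma adjusted p = 0.0372). The neuroligins are adhesion proteins that face presynaptic neurexins, and 0 of 3 passed. Nlgn1, found mainly at excitatory synapses, differed by 0.08 (limma adjusted p = 0.305). Nlgn2, found mainly at inhibitory synapses, differed by -0.07 (limma adjusted p = 0.261), with every hippocampal array below every cortical one by a narrow margin. Nlgn3 differed by 0.03 (limma adjusted p = 0.663).

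Of the phosphatase group, 2 of 4 passed. Ppp3ca encodes the catalytic alpha subunit of calcineurin. It gave 10.70, 10.56 and 10.64 in cortex and 10.94, 10.94 and 11.07 in sham hippocampus. All hippocampal arrays were higher, and the difference was 0.35 (SE 0.057, limma adjusted p = 0.0069). With the replicate block over the 6 sham arrays its adjusted p was 0.0523. Ppp3cb, the beta subunit gene, differed by 0.09 (limma adjusted p = 0.388). Ppp1r9b encodes spinophilin, which holds protein phosphatase 1 in spines, and differed by 0.10 (limma adjusted p = 0.284).

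Ppp1r1b encodes DARPP-32, an inhibitor of protein phosphatase 1 that is best known from striatal neurons. It gave 7.74, 7.76 and 7.67 in cortex and 7.49, 7.32 and 7.49 in sham hippocampus. Hippocampal values lay in the background range and cortical values just above it. Ppp1r1b was thus at least 1.11-fold lower (limma adjusted p = 0.0144 for the measured difference, not for this bound). The mean over 7 other striatal markers was 6.49 to 7.02 in cortex and 6.29 to 6.33 in sham hippocampus. These means lay in the background range, as did Drd2, which gave 6.44, 7.09 and 5.93 in cortex, highest on the second array. Of the 7, only Penk passed, at 8.08, 8.67 and 8.32 in cortex. It was at least 1.73-fold lower in hippocampus, where it lay in the background range (limma adjusted p = 0.00453). Whether these markers bear on Ppp1r1b was not tested. Without the second cortical array Ppp1r1b also passed (limma adjusted p = 0.0411). The call was lost without cortical array 1 (0.0540), without both sham arrays numbered 1 (0.0746) and with the replicate block over the 6 sham arrays (0.106).

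Nrgn encodes neurogranin, which holds calmodulin at low calcium and releases it when calcium rises. It gave 12.35, 12.21 and 12.35 in cortex and 12.17, 12.12 and 12.13 in sham hippocampus. The second cortical array came close to the first hippocampal one. The difference was -0.16 (SE 0.040, limma adjusted p = 0.0349). The call was lost in 14 of 19 alternatives. These were the fits without cortical array 1 (0.109) or 3 (0.0932), sham hippocampal array 1 (0.0554), 2 (0.117) or 3 (0.107), or TFS array 1 (0.0647), 2 (0.0594) or 3 (0.0570). They were also those with no filter (0.0504), with the 6 sham arrays alone (0.110), after quantile normalization (0.157), with the replicate block over all arrays (0.0511) or over the sham arrays (0.0908), and without both sham arrays numbered 1 (0.130).

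**Figure D3:**
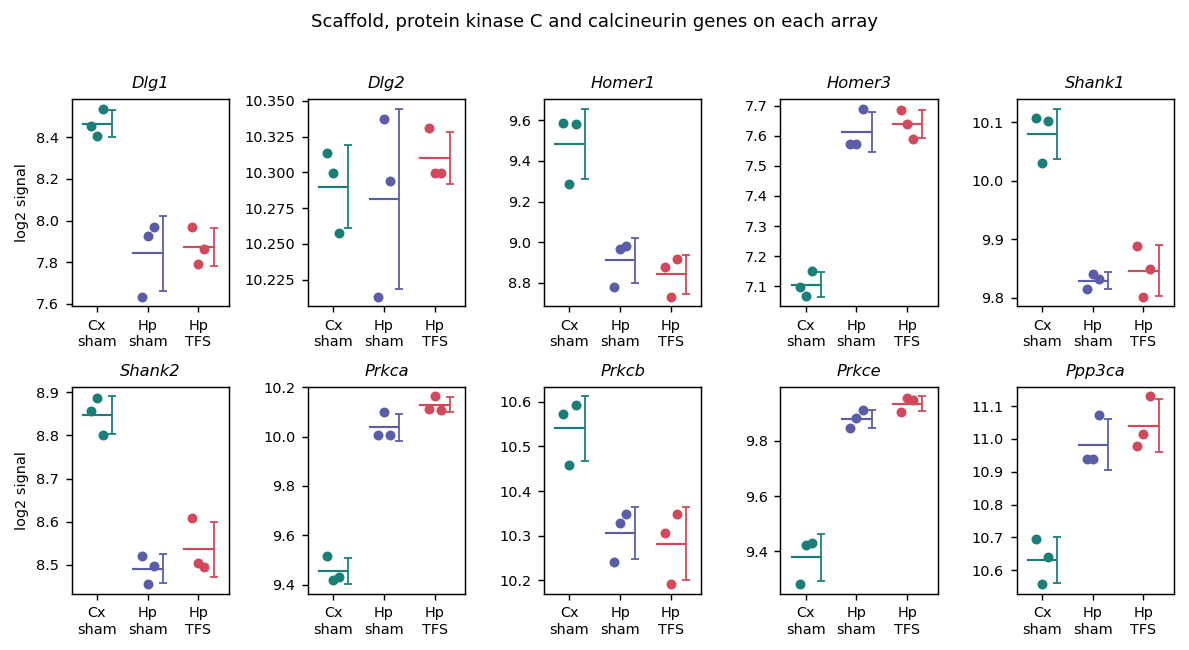
Log2 signal of 10 scaffold, protein kinase C and calcineurin genes on each array, with a line for the group mean and a bar for 1 SD either side (n = 3), each panel with its own scale. Homer3, Prkca, Prkce and Ppp3ca lie higher in the hippocampus, Dlg1, Homer1, Shank1, Shank2 and Prkcb lower, and Dlg2 overlaps.

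Members of the same family thus differed unequally between regions. The difference between the genes of a pair was taken on each array, and its regional change is free of any scaling common to the array. The 11 pairs were picked after the values had been seen and get no test. Relative to Camk2d, which lay in the background range in sham hippocampus, Camk2b was at least 2.58-fold higher in hippocampus than in cortex, and Camk2a at least 2.34-fold. Relative to Camk2g, Camk2b was 0.82 higher and Camk2a 0.68 higher. Homer3, in the background range in cortex, gained at least 1.54-fold on Homer1, and Homer2, in that range on 5 arrays, is not given a value. Prkca gained 0.82 on Prkcb, and Prkce 0.74. Dlg2 gained 0.62 on Dlg1, Dlg3 0.69 and Dlg4 0.60.

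**Figure D4:**
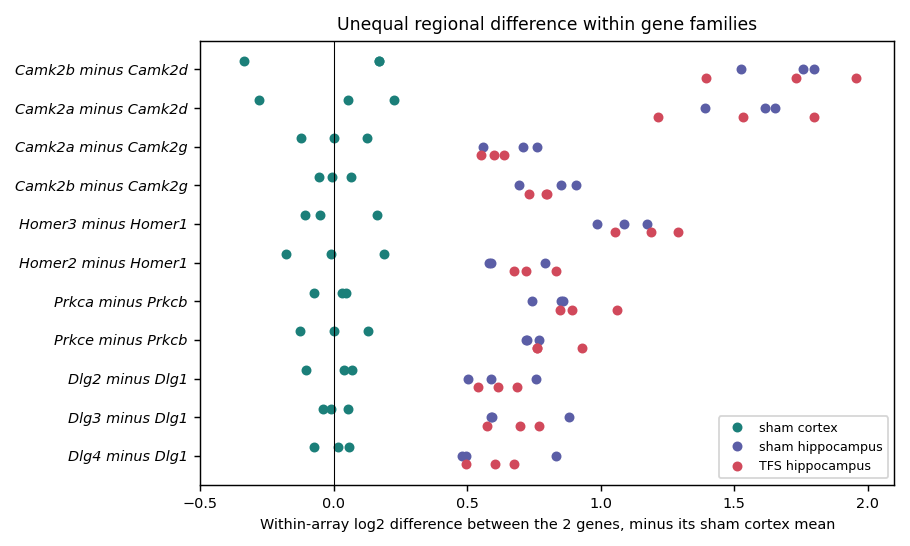
Log2 difference between the genes of 11 pairs on each array, after subtraction of the sham cortex mean of that pair, with 3 points a group. For each pair the hippocampal points, sham and stimulated, lie to the right of the cortical points; those of pairs with Camk2d, Homer3 or Homer2 are drawn at measured values, some of them in the background range.

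Some marker lists of cell types also differed between the regions. Among 6 microglial markers and 4 red blood cell markers, 0 passed. Of 6 thalamic markers, 1 was called higher and 1 lower in hippocampus. The higher one, Plekhg1, lay in the background range in both regions. The mean over 9 cortical neuron markers was 8.15 to 8.32 in cortex and at most 7.68 in sham hippocampus. Of these 9, 6 were lower, 2 did not pass and Rasgrf2 was higher by 0.51 (limma adjusted p = 0.00291). Among the lower ones, Foxp2 lay in the background range in both regions. Cux1, Cux2 and Rorb lay in it in hippocampus, and Cux2 was lower by at least 1.08-fold. The mean over 9 hippocampal markers was 7.12 to 7.29 and 7.71 to 7.75, and 4 were higher. Of these, Prox1 and Fibcd1 lay in the background range in cortex. The rest of the list did not pass, with Wfs1 and Dsp above 0 and Calb1, Grp and Npnt below 0. Dsp, Grp and Npnt lay in the background range in both regions. Inhibitory neuron markers gave 8.46 to 8.58 and 7.97 to 8.15, with 3 of 6 lower. Of the lower ones, Vip lay in the background range in both regions. Pvalb lay in it in hippocampus and was lower by at least 1.09-fold. The defining genes of this list, Gad1 and Gad2, did not pass, with differences of -0.20 (limma adjusted p = 0.147) and -0.04 (0.631). Astrocyte markers gave 8.70 to 8.88 and 8.94 to 9.01, and oligodendrocyte markers 8.42 to 8.88 and 8.92 to 9.09. Choroid plexus markers gave 5.49 to 5.54 and 6.21 to 6.78, where Ttr was 3.30 higher (limma adjusted p = 0.0161). Microglial markers gave 7.33 to 7.48 and 7.39 to 7.43, and endothelial markers 7.19 to 7.25 and 7.05 to 7.07. The means of the microglial, endothelial and choroid plexus lists lay in the background range, as did that of the hippocampal list in cortex. The part of cell composition in the members' differences was not tested.

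A wider list of 64 other postsynaptic genes was also chosen with earlier results of these data known, so its shares are descriptions only. Of these genes, 58 were measured and tested, and 11 were called higher and 16 lower in hippocampus. That is 46.6%, against 12.4% of all genes and 21.6% of genes above the background range. The list was not limited to genes above that range. Grip1, called higher, and Camk2n2, called lower, lay in it on every sham array of both regions. Their median was -0.05. Camk2n1, which encodes an inhibitor of CaMKII, gave 11.52, 11.53 and 11.44 in cortex and 10.47, 10.49 and 10.60 in sham hippocampus. Those groups were widely separated, at -0.98 (SE 0.038, limma adjusted p = 2.8e-05). Lrrtm3, a synaptic adhesion protein gene, was at least 1.42-fold lower (limma adjusted p = 0.00129) and the scaffold gene Magi1 at least 1.18-fold lower (0.000841), both with hippocampal values in the background range. Rcan2, a calcineurin regulator gene, differed by -0.56 (0.00114), the kinase gene Camk1 by -0.26 (0.0015) and the tyrosine phosphatase gene Ptpn5, which encodes STEP, by -0.15 (0.00201).

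Of the higher genes, Tanc1, which encodes a scaffold that binds PSD-95, gave 6.45, 6.74 and 6.75 in cortex and 8.15, 8.15 and 8.27 in sham hippocampus. Its cortical values lay in the background range, and it was at least 1.54-fold higher (limma adjusted p = 0.000104). Ptk2b, which encodes the calcium-activated tyrosine kinase Pyk2, was 0.67 higher (0.000104). Camk1d, a CaMKI isoform gene, was 0.58 higher (0.000255), and Camkk1, a kinase gene whose product activates CaMKI and CaMKIV, was 0.39 higher (0.0024). Actn2, an actin crosslinker gene also in the background range in cortex, was at least 1.16-fold higher (0.00268), and Cttn, which encodes the actin-binding cortactin, 0.44 higher (0.00142).

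The second comparison asked whether TFS changed these genes in the hippocampus after 4 h. None passed: limma called 0 of 32 members and 0 of 15522 genes (0%) at an adjusted p of 0.05. At an unadjusted p of 0.05, limma gave 4 members, 4 higher and 0 lower. That is 12.5% of members, against 5.19% of all genes (4.37% higher, 0.812% lower) and 10.2% of genes above the background range. Differences ran from -0.07 to 0.13. The 95% intervals excluded a 1.5-fold change for 32 of 32 members and a 1.2-fold change for 28 of 32 (87.5%). Over all genes tested these shares were 99.2% and 87.5%, and among genes above the background range 99.3% and 84.9%. Ppp1r1b lay in the background range in both groups, and Camk2d and Homer2 on 5 arrays each. Dlg4 and Nlgn1 each had 1 exact value on all TFS arrays, which narrows their intervals.

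The 4 members with the smallest p among the higher ones were Baiap2, Nlgn3, Prkca and Nrgn. Baiap2 gave 8.71, 8.67 and 8.76 in sham and 8.76, 8.81 and 8.82 in TFS hippocampus, a difference of 0.08 (SE 0.027, limma adjusted p = 0.899). Nlgn3 gave 9.60, 9.58 and 9.48 in sham and 9.68, 9.69 and 9.65 in TFS hippocampus, a difference of 0.12 (SE 0.039, limma adjusted p = 0.904). For both, each TFS array lay above each sham array. For Baiap2 the margin was minimal, with 8.7557 on TFS array 1 against 8.7554 on sham array 3. Prkca gave 10.11, 10.17 and 10.11 after TFS and differed by 0.09 (limma adjusted p = 0.923). Nrgn gave 12.24, 12.26 and 12.21 after TFS and differed by 0.10 (limma adjusted p = 0.923). Neither group pair overlapped, and none of the 4 differences passed correction.

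Only 4 members were below 0. Homer1 gave 8.88, 8.73 and 8.92 after TFS and differed by -0.07 (limma adjusted p = 0.952). Nlgn1 gave 8.11 on all 3 TFS arrays and differed by -0.04 (limma adjusted p = 0.933). Prkcb differed by -0.02 (limma adjusted p = 0.976) and Shank3 by -0.0023 (limma adjusted p = 1). The TFS and sham arrays overlapped for all 4.

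In total 28 of 32 members were above 0 (87.5%), against 61.3% of all genes and 81.8% of genes above the background range. Every TFS array lay above every sham array for 6 members: Dlgap1, Baiap2, Nlgn3, Camk2g, Prkca and Nrgn. The same order held for 8.57% of all genes and 19.3% of those above the background range. The reverse was seen for 0 members and 1.2% of all genes. In either direction, 9.77% of all genes did not overlap. The members' median was 0.030, against 0.011 for all genes and 0.039 for genes above the background range. Over 10 equal classes of signal, the median of all genes ran from -0.0096 to 0.054 and the share above 0 from 38.4% to 85.9%. Of the 32 members, 20 lay in the brightest class and 7 in the next. After quantile normalization the members' median was -0.0071, with 14 above 0 and 18 below. The neuron marker mean was 10.42 to 10.46 in sham and 10.48 to 10.51 in TFS hippocampus, and positive controls stood 3.73 to 3.96 above negative ones on sham arrays and at least 3.95 on TFS arrays. Whether these values bear on the members' shift was not tested.

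The wider list of postsynaptic genes also gave 0 calls after TFS, with 7 of 58 at an unadjusted limma p of 0.05, 6 higher and 1 lower. That is 12.1%, against 5.19% of all genes and 10.2% of genes above the background range. The smallest p among the higher genes was that of Camk1d, 9.80, 9.88 and 9.92 in sham and 10.07, 10.03 and 9.98 in TFS hippocampus. It differed by 0.16 (limma adjusted p = 0.772). Mapk10, which encodes the JNK3 kinase, differed by 0.15 (limma adjusted p = 0.814). Ppp2ca, a catalytic subunit gene of protein phosphatase 2A, differed by 0.14 (limma adjusted p = 0.864). Among the lower genes were Ptpn5 at -0.05 (limma adjusted p = 0.904), Begain at -0.04 (limma adjusted p = 0.923) and Lrrc7, which encodes densin, at -0.04 (limma adjusted p = 0.931).

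**Figure D5:**
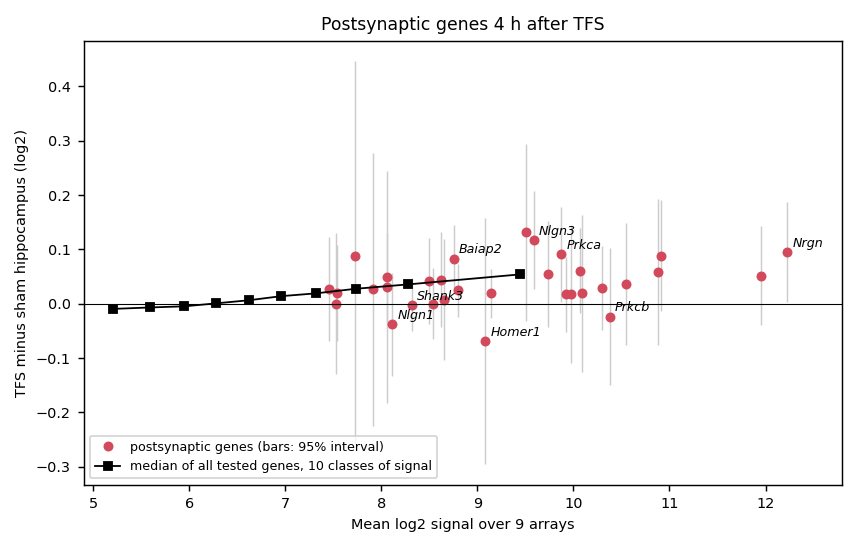
Difference in log2 signal between TFS and sham hippocampus for the 32 measured genes against their mean log2 signal, with bars for the 95% interval (n = 3 a group), and the median of all tested genes in 10 equal classes of signal. Members lie between -0.07 and 0.13, 28 of 32 above 0, and the median of all genes is 0.054 in the brightest class.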

How the data were processed

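RNA of 9 tissue samples was hybridised to rat Clariom D arrays. The authors deposited log2 values per transcript cluster; per the submitters' processing notes RMA and limma were used, with versions and roles not given in the sources used here. The genome build of the deposited table is likewise not given. From the table, 1738 control rows were left out. Of 68842 transcript clusters, 23446 have 1 gene symbol in the platform annotation, 505 several and 44891 none. The row with the highest mean was kept for the 1182 genes with several rows, giving 22093 genes. Tests covered the 15522 genes whose mean reached the median row mean, 4.99.

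Groups were compared in limma 3.58.1 (R 4.3.3), with lmFit and eBayes on all 9 arrays, 1 mean a group, 6 residual degrees of freedom and Benjamini-Hochberg adjustment over all genes tested. With 3 arrays a group, the smallest exact permutation p is 0.1. Figures were drawn with matplotlib 3.10.9 in Python 3.11.15.

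Members and lists were chosen with earlier results of these data known. The text names each member past the threshold in the region comparison, the 4 members with the smallest p in each direction after TFS, and of the wider list up to 6 a direction for region and up to 3 for TFS. Named besides from the wider list are Prkcd, Prkcz, Grip1 and Camk2n2. Numbers pair the sham arrays of cortex and hippocampus: deviations from group means correlated at 0.416, 0.202 and 0.252 for like numbers, and at -0.291 to 0.0604 for unlike ones. This pairing comes from the data, since the labels give only a number. Sham and TFS hippocampus arrays of like number correlated at -0.111, -0.287 and -0.025 and are not paired. Bounds for genes in the background range were added after seeing the data. Alternatives were other filters, scalings, row rules, variance models, blocks, a threshold of 0.1, and leaving out arrays.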

Additional observations from a re-analysis of the deposited data

How the results depend on the processing

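Of the 19 members called between regions, 9 kept the call under every alternative run and 0 turned direction. With the replicate number as a block over all arrays, 17 members were called, without Camk2a and Nrgn. With the block over the 6 sham arrays, chosen after seeing the data, 9 members and 982 genes of all tested were called: Dlg1, Dlgap2, Shank1, Shank2, Homer3, Camk2b, Camk2d, Prkca and Prkce. The pairing block changed no call of a member after TFS. Leaving out 1 array gave 16 to 18 called members and 1285 to 2183 genes of all tested, fewest without sham hippocampal array 2; the 6 sham arrays alone gave 1211 genes, against 1931. Leaving out both sham arrays numbered 1, also chosen after seeing the data, gave 15 members, 14 of them shared. It gave 1 gene of all tested after TFS. Camk2a lost its call after quantile normalization (adjusted p = 0.316) and with the 6 sham arrays alone (0.0667). The members' regional median was -0.037 after quantile normalization and -0.023 to -0.0081 with 1 array left out. Their median after TFS was 0.015 with centred arrays, -0.0071 after quantile normalization and 0.019 to 0.056 with 1 array left out, highest without sham hippocampal array 3. Signs turned for Dlg2 between regions (0.0029 without cortical array 1, 0.026 without sham hippocampal array 1, 0.037 without both). After TFS, Shank3 turned to 0.0075 without sham hippocampal array 3, and to 0.00059 without TFS array 1 or 3, while Prkcb ran from -0.057 to 0.022, its value without TFS array 2. The causes were not tested. Signals in the background range limit Camk2d, Homer2, Homer3, Ppp1r1b and Camk4, and with 3 arrays a group small differences cannot be resolved.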
